A study of Homo sapiens with 12 samples.

Results

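STING, encoded by TMEM173, and the genes that work around it in the sensing of cytosolic DNA were followed as RNA in HCT-116, a human colon cancer cell line. The 10 genes were taken from the deposited expression table by their gene names, out of 59172 features: TMEM173, CGAS, TBK1, IKBKE, IRF3, IRF7, NLRX1, TRIM32, TRIM56 and BANF1. Of these, 9 had enough reads to be tested and CGAS did not. Total RNA was sequenced from 4 groups of 3 libraries. The first group was SHP2-silenced cells (shRNA against PTPN11, per the sample titles) given CPT-11, also called irinotecan, a topoisomerase I inhibitor. The second was wild-type cells held in lovastatin, an inhibitor of HMG-CoA reductase, for 4 h and then given CPT-11 for 24 h. The third was wild-type cells given CPT-11 alone for 24 h, and the fourth was untreated wild-type cells. The treatment label of the silenced samples also names lovastatin, while their titles do not, so they were grouped by title. No group had lovastatin or silencing without CPT-11. The labels give no control hairpin, no number of silenced clones and no drug dose, and they do not say whether the replicates were separate cultures, so the p-values measure a spread between libraries that may be technical.

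The pathway works as a relay. The enzyme cGAS, encoded by CGAS, binds double-stranded DNA in the cytosol and makes the cyclic dinucleotide cGAMP, which binds STING on the endoplasmic reticulum. STING then moves toward the Golgi and recruits the kinase TBK1, with IKBKE as its close relative, and TBK1 phosphorylates the transcription factor IRF3, which enters the nucleus and switches on interferon genes. IRF7 is a related factor that interferon itself induces. TRIM32 and TRIM56 are ubiquitin ligases reported to modify STING and raise its signalling, NLRX1 is a mitochondrial protein reported to hold STING away from TBK1, and BANF1 coats DNA and limits the access of cGAS to it. In tumour cells, DNA-damaging drugs can bring DNA into the cytosol, and many colon cancer lines have lost cGAS or STING.

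RefSeq start-site windows (GRCh38.p14, 250 bases before to 50 after an annotated start) were available for 6 of the 10 genes: TBK1, IKBKE, NLRX1, TRIM32, TRIM56 and BANF1. Windows of 4 of them are printed because their RNA carries the comparisons below. TRIM32 and NLRX1 were higher in every treated group than in untreated cells, and BANF1 was lower with CPT-11 alone than in untreated cells. TBK1 was lower in SHP2-silenced cells than with CPT-11 alone, a call lost in 8 of 14 alternative fits. Capitals mark matches to 6 motifs searched on both strands. These were the interferon response core GAAANNGAAA, the AP-1 site TGANTCA, the E-box CACGTG, the GC box GGGCGG, the ETS-type site CCGGAAGT and the p53 response element. All run 5′ to 3′ on the plus strand.
TRIM32, chr9:116687055-116687354: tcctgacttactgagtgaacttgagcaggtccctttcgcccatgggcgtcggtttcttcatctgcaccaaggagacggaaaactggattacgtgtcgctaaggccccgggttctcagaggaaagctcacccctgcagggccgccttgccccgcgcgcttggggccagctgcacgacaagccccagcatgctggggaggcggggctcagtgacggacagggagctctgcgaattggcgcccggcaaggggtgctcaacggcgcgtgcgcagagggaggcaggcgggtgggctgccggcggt
NLRX1, chr11:119168084-119168383: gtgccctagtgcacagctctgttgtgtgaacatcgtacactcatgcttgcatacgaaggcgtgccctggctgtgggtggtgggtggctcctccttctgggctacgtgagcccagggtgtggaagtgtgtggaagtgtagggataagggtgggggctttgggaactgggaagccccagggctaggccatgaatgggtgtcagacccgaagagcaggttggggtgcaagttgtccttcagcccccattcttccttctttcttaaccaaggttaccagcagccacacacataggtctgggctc
BANF1, chr11:66002253-66002552: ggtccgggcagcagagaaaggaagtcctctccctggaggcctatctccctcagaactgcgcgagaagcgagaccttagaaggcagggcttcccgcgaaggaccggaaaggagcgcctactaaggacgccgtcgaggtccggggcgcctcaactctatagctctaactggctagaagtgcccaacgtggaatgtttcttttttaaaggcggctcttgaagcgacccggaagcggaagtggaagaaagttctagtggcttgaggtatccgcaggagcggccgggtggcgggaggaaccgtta
TBK1, chr12:64451870-64452169: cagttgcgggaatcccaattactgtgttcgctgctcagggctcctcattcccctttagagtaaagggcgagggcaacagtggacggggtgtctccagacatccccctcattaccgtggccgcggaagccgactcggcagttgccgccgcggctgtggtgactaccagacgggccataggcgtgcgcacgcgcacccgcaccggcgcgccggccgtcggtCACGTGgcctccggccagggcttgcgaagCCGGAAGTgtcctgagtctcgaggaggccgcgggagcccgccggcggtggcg
The TBK1 window held CACGTG at bases -31 to -26 from the start. It also held CCGGAAGT at bases -2 to 6. The printed TRIM32, NLRX1 and BANF1 windows held none of the 6 motifs. The window of a second TRIM32 start, chr9:116687319-116687618, held GGGCGG at 2 places. The TRIM56 window held GGGCGG once on the minus strand, and the IKBKE window held no motif. Over all 35116 windows of the same length, CACGTG was present in 7.26%, CCGGAAGT in 4.14%, GGGCGG in 45%, TGANTCA in 7.71%, GAAANNGAAA in 3.57% and the p53 response element in 0.0285%. A match describes letters in these windows and shows no binding. The NLRX1 start lies 1766 bases and the BANF1 start 424 bases downstream of the gene start in the deposited table, so other starts of these genes are not shown.

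The libraries held 14447847 to 16224271 assigned reads each, and PTPN11, which encodes SHP2, checked the silencing. It stood at 6.01, 6.54 and 7.15 FPKM in silenced cells given CPT-11, against 48.2, 50.5 and 43.9 FPKM in cells given CPT-11 alone. HMGCS1, a sterol-pathway gene, had 24.9 to 25.8 FPKM in silenced cells, 101 to 105 FPKM after lovastatin and CPT-11, and 25.2 to 31.2 FPKM after CPT-11 alone, so the silenced libraries did not carry the HMGCS1 level of the lovastatin group. Of 8 colon epithelial markers, 6 were expressed enough to test and CDX1 and VIL1 were not. Of 11 markers of blood, stromal and endothelial cells, 4 could be tested; the summed level of the 11 was 8.742 to 10.36, 7.994 to 8.674, 6.643 to 8.475 and 4.465 to 5.305 FPKM in silenced plus CPT-11, lovastatin plus CPT-11, CPT-11 and untreated libraries. Of the blood cell markers, PTPRC and CD3E were near 0. ITGAM, another blood cell marker, averaged 0.879, 0.637, 0.592 and 0.157 FPKM in the same order of groups. It was called higher in each treated group than in untreated cells. Against untreated cells, 3 of the 4 tested markers of other cells and 5 of the 6 epithelial markers rose with silencing (18.3% of all tested genes rose). With lovastatin 3 of the 4 rose, and 3 of the 6 epithelial markers rose and 1 fell (14.7% of all rose, 14.3% fell). With CPT-11 alone 2 of the 4, ACTA2 and ITGAM, and 2 of the 6, KRT19 and CDH1, rose (8.85% of all rose). The CDH1 and KRT19 calls were lost in a fit of these groups alone. Without a filter on low genes the CDH1 and ITGAM calls were lost. That of CDH1 was also lost without any library of either group but CPT-11 replicate 3. Against CPT-11 alone, 1 of the 4, COL1A1, and 2 of the 6, EPCAM and CDH1, rose with silencing (10.01% of all rose). The COL1A1 call was lost in 9 of 14 alternative fits, among them that corrected for GC and length. That of EPCAM was lost in a fit of these groups alone. The part of these markers in the results was not tested. Replicate 3 of the CPT-11 group stood apart from the other 2. Its deviation from the mean of all libraries rose by 0.08 on the log2 scale per 10 percentage points of GC content, against slopes of -0.16 and -0.18 in CPT-11 replicates 1 and 2. The slopes were 0.10 to 0.14 in silenced, 0.01 to 0.08 in lovastatin and -0.15 to -0.01 in untreated libraries. Most counts below in the comparisons with CPT-11 alone are given with and without that library, while the marker counts above hold it.

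BANF1 was the most abundant of the 10 genes per unit of length, at 59.96 to 96.0 FPKM (fragments scaled to exon length and library size), a level above 97.9% of the 18047 tested genes on average. TRIM32, TBK1 and IRF3 had group means between 11.5 and 16.7 FPKM and exchanged places from group to group. In silenced cells the mean of TBK1 and that of TMEM173 were both 11.5 FPKM. TMEM173, NLRX1, TRIM56 and IRF7 had group means between 4.24 and 11.5 FPKM, and IKBKE was lowest of the tested genes at 1.501 to 2.85 FPKM in all 12 libraries. The ratio of the highest to the lowest group mean was 2.71 for TMEM173, 1.94 for NLRX1 and 1.57 for IRF7. It was between 1.17, in IRF3, and 1.45, in TBK1, for the other tested genes.

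**Figure D1:**
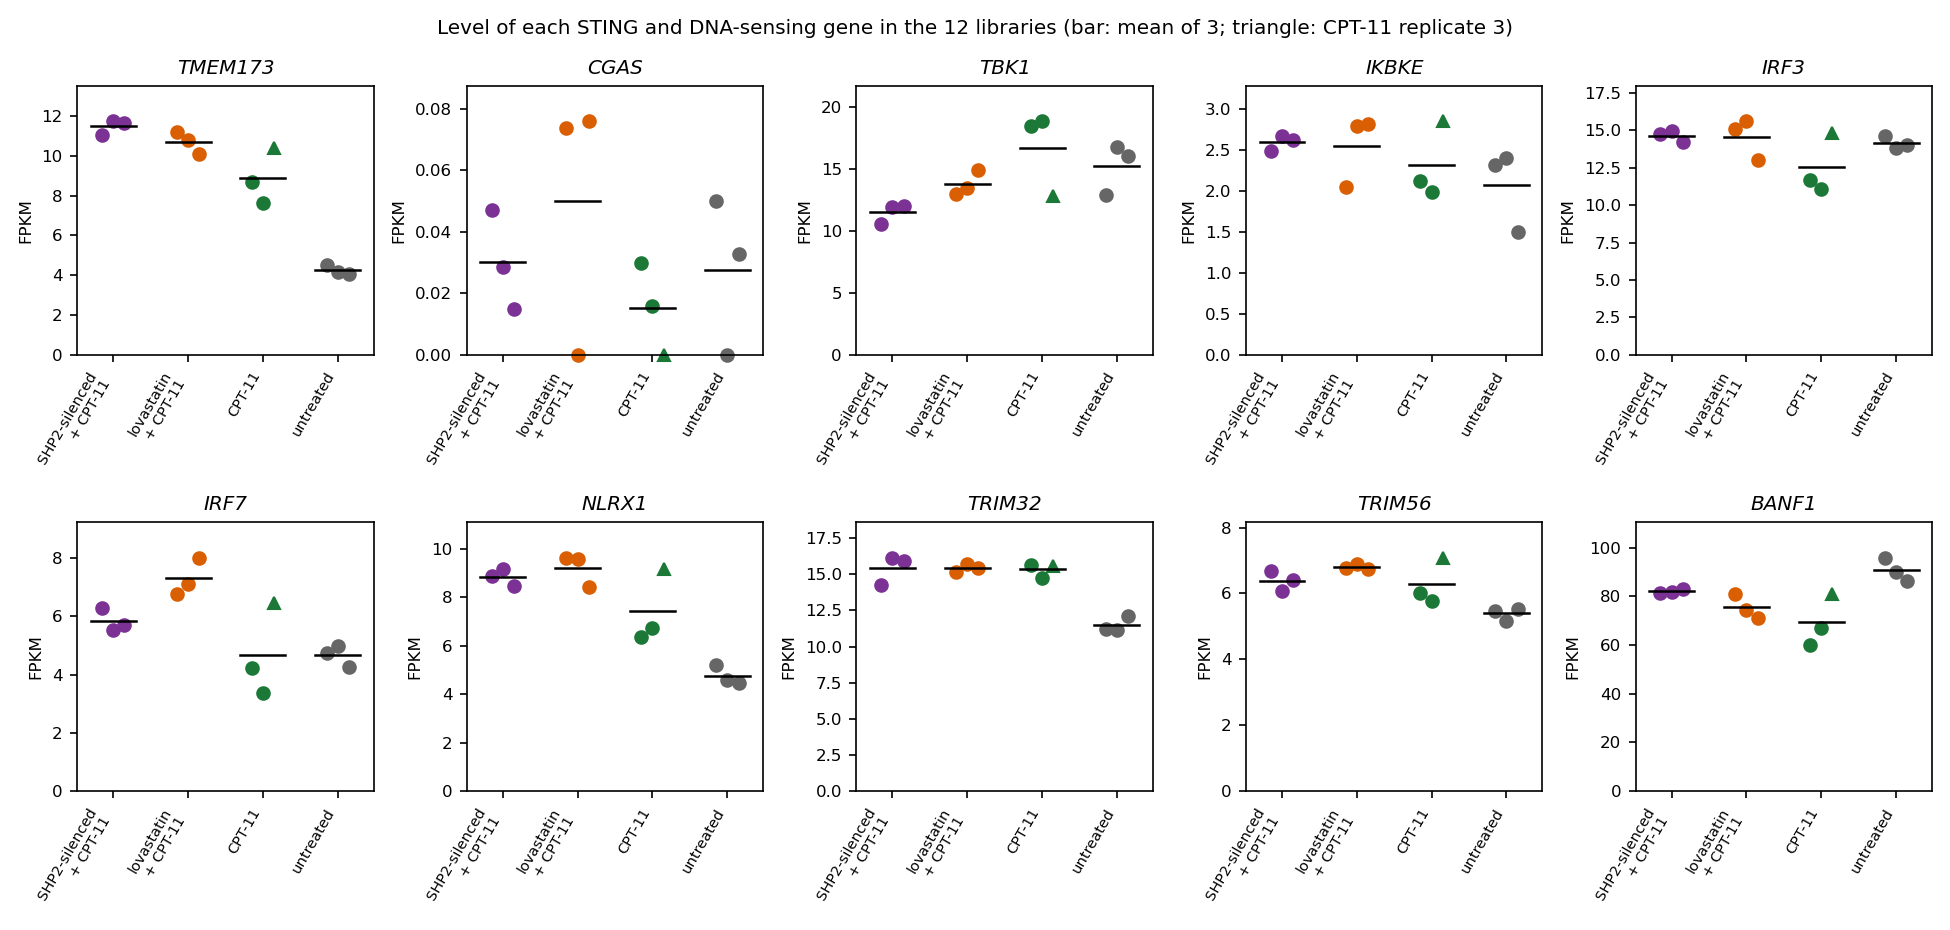
FPKM of the 10 genes (linear axes from 0, each gene on its own scale) in the 12 libraries; points are libraries, horizontal bars are means of 3 and the triangle is CPT-11 replicate 3. TMEM173 lies between 4.05 and 4.50 FPKM in untreated cells and between 7.60 and 11.7 FPKM in all treated libraries, IRF3 overlaps between all groups, and CGAS stays under 0.08 FPKM.

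CGAS, on chromosome 6 from 73413515 to 73452276 on the minus strand, was almost silent. Its reads, recovered from the FPKM values, numbered 3, 2 and 1 in silenced plus CPT-11, 5, 0 and 5 in lovastatin plus CPT-11, 2, 1 and 0 in CPT-11 and 3, 0 and 2 in untreated libraries. The group sums were 6, 10, 3 and 5 reads in that order of groups, with exact Poisson intervals at 95% of 2.2 to 13.1, 4.8 to 18.4, 0.619 to 8.77 and 1.62 to 11.7 reads that cover counting error only. All 4 intervals overlap, and no difference was detectable at this depth. Its 24 reads in all compare with 6513 for TMEM173 and 1721 for IKBKE over the same libraries, counts that are not scaled for gene length.

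TMEM173 lies on chromosome 5 from 139475534 to 139482935 on the minus strand, with 3850 exonic bases in 6 blocks that no other annotated gene shares. It had 11.1, 11.7 and 11.6 FPKM in silenced plus CPT-11 libraries, 11.2, 10.8 and 10.1 FPKM after lovastatin and CPT-11, 8.69, 7.60 and 10.4 FPKM after CPT-11 alone, and 4.50, 4.16 and 4.05 FPKM in untreated libraries. All 9 treated libraries were above all 3 untreated ones, and the silenced libraries were above all of the CPT-11 libraries. Lovastatin and CPT-11 libraries overlapped, through CPT-11 replicate 3. Against untreated cells the difference on the log2(FPKM + 1) scale was 1.25 ± 0.09 (SE) with silencing (limma adjusted p = 3.6e-06), 1.158 ± 0.09 with lovastatin (adjusted p = 7.3e-06) and 0.91 ± 0.09 with CPT-11 alone (adjusted p = 6.8e-05). Among the differences of all tested genes these stood at percentiles 99.3, 99.3 and 99.2. The added pseudocount of 1 makes such differences smaller than the ratio of FPKM, most of all in weakly expressed genes.

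Between treated groups, TMEM173 differed less. It was higher by 0.34 ± 0.09 in silenced cells than with CPT-11 alone, with a 95% interval of 0.14 to 0.54 (limma adjusted p = 0.025). That call was lost without a filter on low genes (adjusted p = 0.061), when the fit held only these groups (adjusted p = 0.091) and on dropping any library of either group but CPT-11 replicate 3 (adjusted p = 0.061 to 0.095). With each library corrected for GC content and gene length the difference was 0.19 (adjusted p = 0.038). Leaving CPT-11 replicate 3 out gave 0.45 (adjusted p = 5.9e-04). With lovastatin the difference from CPT-11 alone was 0.25 ± 0.09, with an interval of 0.05 to 0.45 (adjusted p = 0.20); it was 0.36 once CPT-11 replicate 3 was dropped (adjusted p = 0.0046). Silenced and lovastatin-treated cells differed by 0.10 ± 0.09, with an interval of -0.10 to 0.30 (adjusted p = 0.61).

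The kinases moved little with CPT-11, and TBK1 was lowest after silencing. TBK1 lies on chromosome 12 from 64451880 to 64502108 on the plus strand, and 702 of its 4762 exonic bases are shared with the antisense gene AC135279.3; the labels do not say whether reads were assigned by strand. It had 10.5, 11.9 and 12.01 FPKM in silenced plus CPT-11 libraries, 12.9, 13.5 and 14.9 FPKM after lovastatin and CPT-11, 18.4, 18.8 and 12.8 FPKM after CPT-11 alone, and 12.9, 16.8 and 16.0 FPKM in untreated libraries. All 3 silenced libraries were below every other library, and the low value in the CPT-11 group was replicate 3. The difference between silenced and CPT-11 cells was -0.49 ± 0.14 (limma adjusted p = 0.030; interval -0.79 to -0.19), and -0.66 without CPT-11 replicate 3 (adjusted p = 6.3e-04). The call was lost without a filter (adjusted p = 0.085), in a fit of these groups alone (adjusted p = 0.081), after the GC and length correction (-0.27, adjusted p = 0.052) and without any other library of the 2 groups (adjusted p = 0.060 to 0.12). The GC content of TBK1 exons was 38.7%, the lowest of the 10 genes. Silenced cells differed from untreated ones by -0.37 ± 0.14 (adjusted p = 0.051).

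IKBKE, on chromosome 1 from 206470476 to 206496889 on the plus strand, passed no test. It had 2.48, 2.67 and 2.63 FPKM in silenced plus CPT-11 libraries, 2.05, 2.79 and 2.81 FPKM with lovastatin and CPT-11, 2.12, 1.98 and 2.85 FPKM with CPT-11 alone, and 2.31, 2.40 and 1.501 FPKM in untreated libraries. The silenced libraries were above the untreated ones, by 0.24 on the log2 scale (limma adjusted p = 0.20), and all other pairs of groups overlapped. The adjusted p over the 6 comparisons lay between 0.20 and 0.94.

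The transcription factors behaved differently from each other. IRF3 lies on chromosome 19 from 49659569 to 49665875 on the minus strand, and 734 of its 3794 exonic bases are shared with BCL2L12. It had 14.8, 14.96 and 14.2 FPKM in silenced plus CPT-11 libraries, 15.1, 15.6 and 13.01 FPKM after lovastatin and CPT-11, 11.7, 11.1 and 14.8 FPKM after CPT-11 alone, and 14.6, 13.8 and 14.02 FPKM in untreated libraries. Its groups overlapped in all 6 comparisons and no difference passed the test, the furthest from 0 being 0.22 ± 0.10 between silenced and CPT-11 cells (limma adjusted p = 0.11). CPT-11 replicates 1 and 2 were the lowest of the 12 libraries. Without replicate 3, IRF3 fell by 0.29 with CPT-11 against untreated cells (adjusted p = 0.012) and was higher by 0.33 with lovastatin (adjusted p = 0.0065) and by 0.34 with silencing (adjusted p = 0.0028) than with CPT-11 alone. The GC and length correction turned its difference from untreated cells to -0.16 with lovastatin (adjusted p = 0.026) and -0.21 with silencing (adjusted p = 0.0068), against 0.04 and 0.05 without it. With all 12 libraries the correction also moved the difference between silenced and CPT-11 cells to just below 0. It was not run without CPT-11 replicate 3.

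IRF7, on chromosome 11 from 612553 to 615999 on the minus strand, was highest after lovastatin. It had 6.29, 5.52 and 5.70 FPKM in silenced plus CPT-11 libraries, 6.78, 7.12 and 8.02 FPKM after lovastatin and CPT-11, 4.23, 3.36 and 6.46 FPKM after CPT-11 alone, and 4.73, 4.99 and 4.25 FPKM in untreated libraries. The 3 lovastatin libraries were above all other 9, and the silenced libraries were above the untreated ones. The difference between silenced and untreated cells did not pass the test, and the correction for GC and length reversed its sign. Against untreated cells IRF7 rose by 0.55 ± 0.16 with lovastatin (limma adjusted p = 0.021). That call was lost without a filter (adjusted p = 0.062) and without lovastatin replicate 2 (0.052), lovastatin replicate 3 (0.072) or untreated replicate 3 (0.075), and after correction for GC and length the difference was 0.29 (adjusted p = 0.032). Its exons were 67.0% GC, the highest of the 10 genes. Between lovastatin and CPT-11 alone the difference was 0.58 ± 0.16, with an interval of 0.24 to 0.93 (adjusted p = 0.14); dropping CPT-11 replicate 3 gave 0.80 (adjusted p = 9.1e-04). The difference between silenced and CPT-11 cells was 0.30 (adjusted p = 0.18), -0.13 after correction for GC and length (adjusted p = 0.36) and 0.52 once CPT-11 replicate 3 was dropped (adjusted p = 0.0020). CPT-11 alone and untreated cells differed by -0.03 (adjusted p = 0.93).

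Of the regulators of STING, NLRX1 and TRIM32 rose in every treated group. NLRX1 lies on chromosome 11 from 119166568 to 119184016 on the plus strand and shares no exonic base with another gene. It had 8.86, 9.16 and 8.48 FPKM in silenced plus CPT-11 libraries, 9.63, 9.56 and 8.42 FPKM after lovastatin and CPT-11, 6.34, 6.73 and 9.17 FPKM after CPT-11 alone, and 5.21, 4.59 and 4.47 FPKM in untreated libraries. All treated libraries were above all untreated ones, and CPT-11 replicate 3 lay among the libraries of the combined treatments. Against untreated cells the difference was 0.77 ± 0.11 with silencing (limma adjusted p = 3.5e-04), 0.83 ± 0.11 with lovastatin (adjusted p = 3.1e-04) and 0.53 ± 0.11 with CPT-11 alone (adjusted p = 0.0076; 0.063 in a fit of these groups alone). Against CPT-11 alone neither silencing (0.24 ± 0.11, adjusted p = 0.14) nor lovastatin (0.29 ± 0.11, adjusted p = 0.21) passed the test; without CPT-11 replicate 3 both did, at 0.38 (adjusted p = 0.0024) and 0.44 (adjusted p = 0.0029). With the GC and length correction, the difference between silenced and CPT-11 cells was 0.01.

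TRIM32, on chromosome 9 from 116687302 to 116701300 on the plus strand, had group means of 15.3 to 15.5 FPKM in the treated groups and 11.5 FPKM in untreated cells. It had 14.3, 16.2 and 15.9 FPKM in silenced plus CPT-11 libraries, 15.1, 15.7 and 15.5 FPKM with lovastatin and CPT-11, 15.7, 14.7 and 15.6 FPKM with CPT-11 alone, and 11.2, 11.2 and 12.1 FPKM in untreated libraries. The lowest treated library was above the highest untreated one. The difference from untreated cells was 0.40 ± 0.06 with silencing (limma adjusted p = 4.2e-04), 0.39 ± 0.06 with lovastatin (adjusted p = 5.6e-04) and 0.39 ± 0.06 with CPT-11 alone (adjusted p = 0.0011). Between treated groups it was 0.00 to 0.01, and the interval for lovastatin against CPT-11 alone ran from -0.12 to 0.14. CPT-11 replicate 3 was not apart from the other CPT-11 libraries for this gene.

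TRIM56, on chromosome 7 from 101085439 to 101097967 on the plus strand, moved less. It had 6.68, 6.07 and 6.40 FPKM in silenced plus CPT-11 libraries, 6.76, 6.89 and 6.75 FPKM with lovastatin and CPT-11, 6.01, 5.78 and 7.09 FPKM with CPT-11 alone, and 5.48, 5.17 and 5.54 FPKM in untreated libraries. The treated libraries were all above the untreated ones, and the silenced libraries all below the lovastatin ones. Against untreated cells TRIM56 rose by 0.29 ± 0.07 with lovastatin (limma adjusted p = 0.013; 0.054 without untreated replicate 2) and by 0.21 ± 0.07 with silencing (adjusted p = 0.045). The silenced call was lost without a filter (adjusted p = 0.073) and without any 1 of the 6 libraries (adjusted p = 0.059 to 0.14). With CPT-11 alone the difference was 0.19 ± 0.07 (adjusted p = 0.11).

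BANF1, on chromosome 11 from 66002079 to 66004149 on the plus strand, went the other way. It had 81.2, 81.9 and 83.0 FPKM in silenced plus CPT-11 libraries, 81.0, 74.2 and 71.2 FPKM after lovastatin and CPT-11, 59.96, 67.1 and 81.0 FPKM after CPT-11 alone, and 96.0, 90.2 and 86.5 FPKM in untreated libraries. All treated libraries were below the untreated ones, and the silenced libraries were above all others that had CPT-11. BANF1 fell by 0.39 ± 0.09 with CPT-11 alone (limma adjusted p = 0.015), a call lost in a fit of these groups alone (adjusted p = 0.085) and without untreated replicate 1 (adjusted p = 0.054). Leaving out CPT-11 replicate 3, the difference was -0.51 (adjusted p = 4.3e-04). The difference from untreated cells was -0.27 ± 0.09 with lovastatin (adjusted p = 0.053) and -0.14 with silencing (adjusted p = 0.25). Between silenced and CPT-11 cells it was 0.25 ± 0.09 (adjusted p = 0.073), or 0.37 with CPT-11 replicate 3 dropped (adjusted p = 0.0015).

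**Figure D2:**
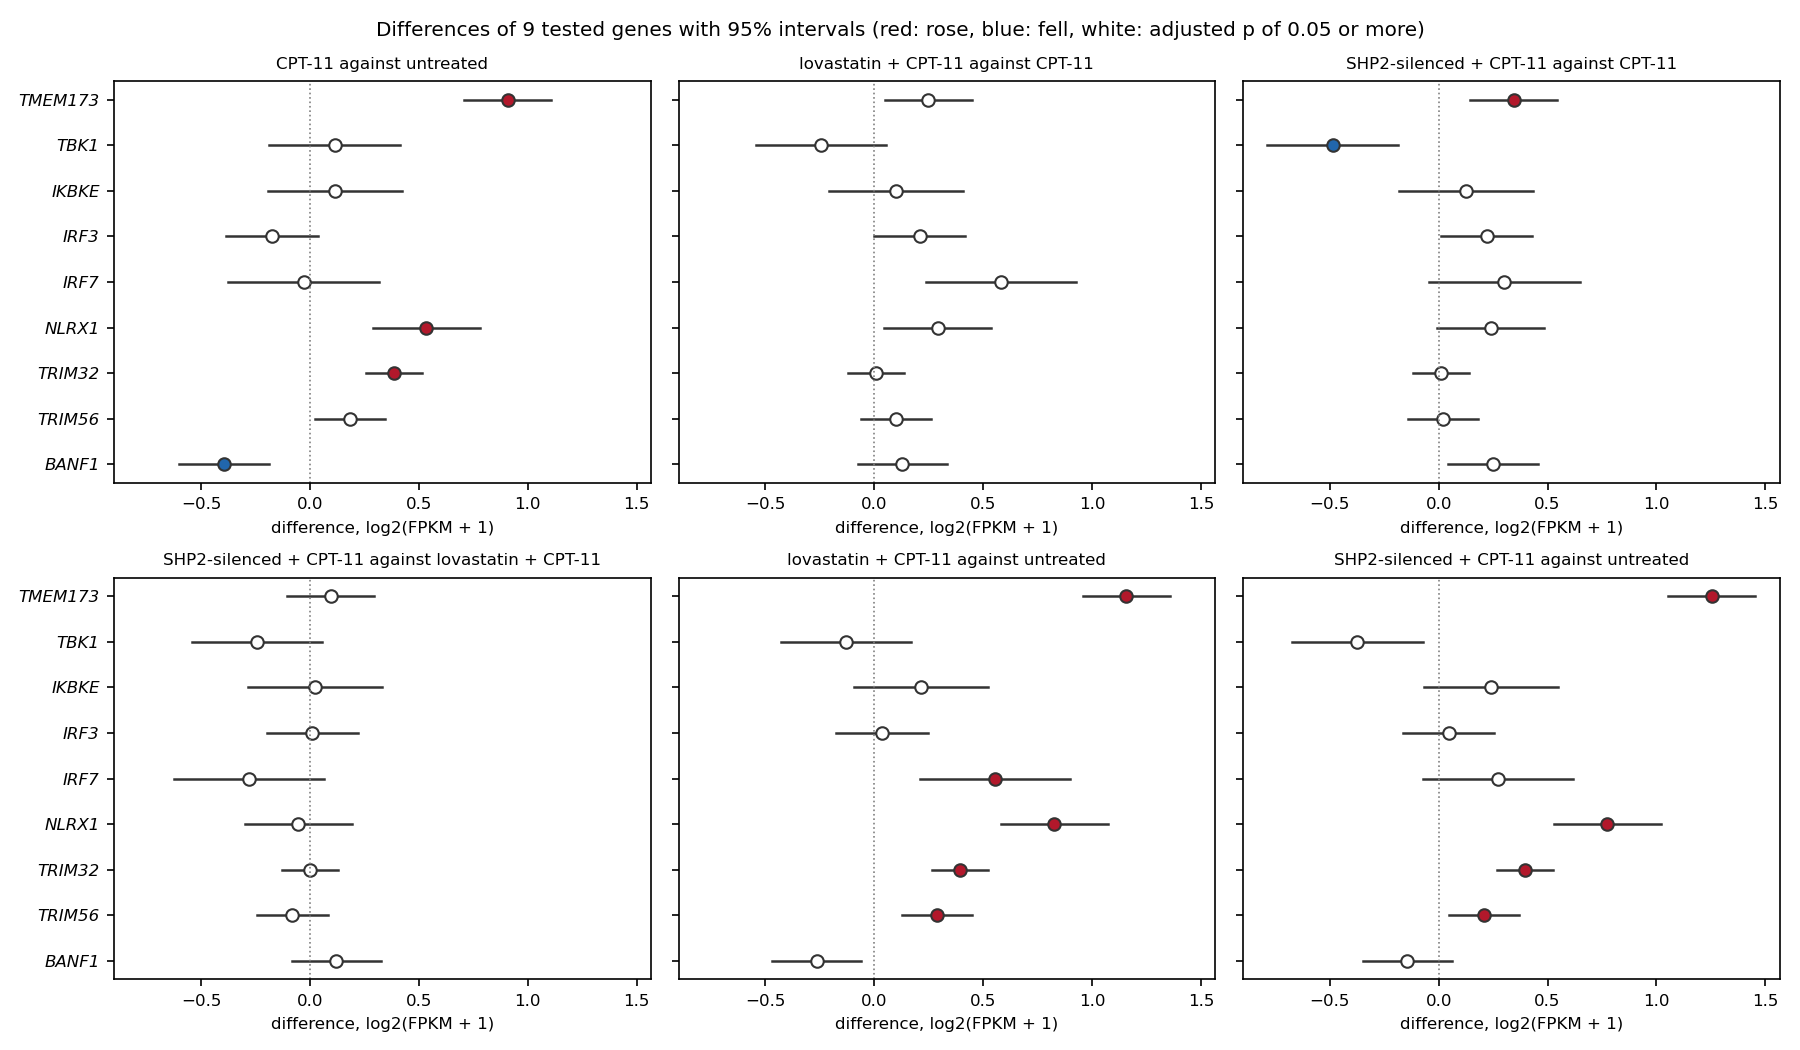
Difference on the log2(FPKM + 1) scale of the 9 tested genes in the 6 comparisons, with 95% intervals from limma over all 12 libraries; red points rose and blue points fell past an adjusted p of 0.05. TMEM173, NLRX1 and TRIM32 lie to the right of 0 in each comparison with untreated cells, while no point is coloured for lovastatin plus CPT-11 against CPT-11 alone.

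Counted by comparison, CPT-11 alone against untreated cells gave 4 of the 9 tested genes past an adjusted p of 0.05, with TMEM173, NLRX1 and TRIM32 higher and BANF1 lower, where 16.6% of the 18047 tested genes passed, 8.85% higher and 7.72% lower. Lovastatin plus CPT-11 against untreated cells gave 5, all higher, where 29.0% of all tested genes passed, 14.7% higher and 14.3% lower. Silencing plus CPT-11 against untreated cells gave 4, all higher, where 37.8% passed, 18.3% higher and 19.5% lower. These 3 comparisons share the untreated libraries. The median difference of the 9 genes was 0.24, 0.29 and 0.12 with silencing, lovastatin and CPT-11 alone, against a median of all tested genes within 0.01 of 0. The libraries of the compared groups did not overlap in 8 of the 9 genes for silencing (54.1% of all tested genes), in 6 for lovastatin (47.3%) and in 5 for CPT-11 alone (29.4%), each against untreated cells. With the GC and length correction lovastatin gave 5 higher and 2 lower against untreated cells, and silencing 4 higher and 2 lower. Of all tested genes 34.7% and 39.5% passed there. Fits of the compared groups alone gave 5 higher and 1 lower, and 5 higher and 2 lower, where 34.8% and 45.3% passed. By voom it was 5 higher and 1 lower, and 4 higher and 1 lower, where 30.9% and 39.5% passed.

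Silencing plus CPT-11 against CPT-11 alone gave 2 of 9, TMEM173 higher and TBK1 lower, where 22.0% of all tested genes passed. Without CPT-11 replicate 3 it gave 6, namely TMEM173, IRF3, IRF7, NLRX1 and BANF1 higher and TBK1 lower, where 43.7% of 17955 genes passed. Lovastatin plus CPT-11 against CPT-11 alone gave 0 of 9 in limma, where 0.465% of all tested genes passed. At an unadjusted p under 0.05 it gave 3, TMEM173, IRF7 and NLRX1, and voom on the recovered reads also called 0. Without CPT-11 replicate 3 it gave 7, namely the same 6 genes in the same directions and TRIM56 higher, where 30.5% passed. Silenced against lovastatin-treated cells, both with CPT-11, gave 0 of 9 in limma, where 6.84% of all tested genes passed; 0 of 9 had an unadjusted p under 0.05, and voom on the recovered reads called 0. All tested genes split there into 2.58% higher and 4.26% lower. The count of CPT-11 alone against untreated cells without replicate 3 was 5, with IRF3 lower as the addition, where 24.6% passed. In each comparison with CPT-11 alone the share of all genes called thus changed with that library as the counts of these genes did. Libraries did not overlap in 3 of 9 genes for silencing against CPT-11 (35.9% of all tested genes), in 1 for lovastatin against CPT-11 (17.1%) and in 4 for silencing against lovastatin (35.5%).

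**Figure D3:**
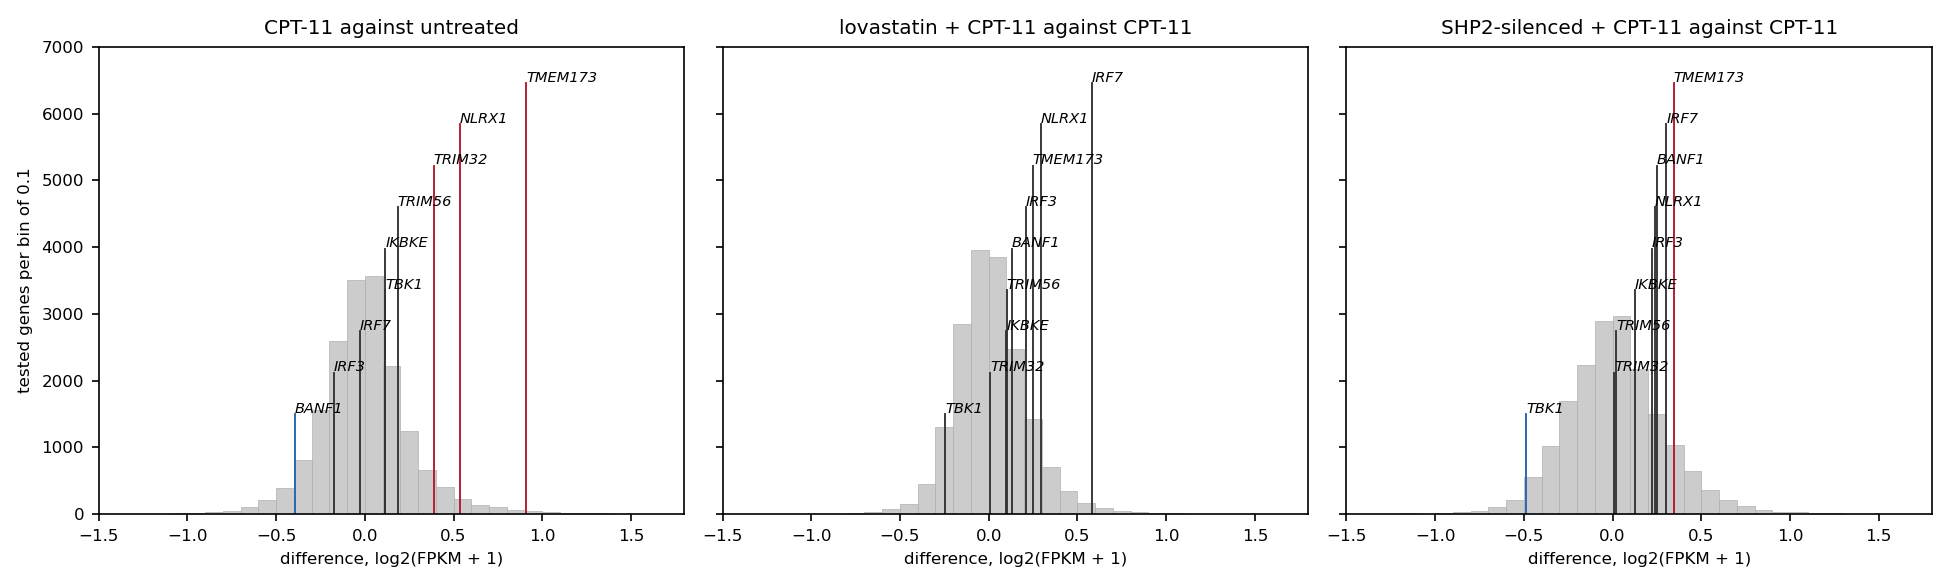
Number of tested genes per bin of 0.1 by their log2(FPKM + 1) difference, for 3 comparisons, with lines at the 9 tested genes (red higher and blue lower past an adjusted p of 0.05; line heights only separate the names). TMEM173 sits in the far right tail for CPT-11 against untreated cells, and IRF7 stands furthest right of the 9 for lovastatin plus CPT-11 against CPT-11 alone, at percentile 98.6.

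Within the CPT-11 group the 9 genes showed how replicate 3 differed. Against the untreated mean, replicates 1, 2 and 3 stood at 0.89, 0.72 and 1.12 for TMEM173 and at 0.35, 0.43 and 0.82 for NLRX1. They stood at -0.11, -0.38 and 0.40 for IRF7 and at -0.26, -0.33 and 0.06 for IRF3. TBK1 ran the other way, at 0.27, 0.30 and -0.22. TRIM32, at 0.42, 0.33 and 0.41, showed no such gap. The sign of IRF7, IRF3 and TBK1 in replicate 3 was opposite to that in the other 2 replicates, and the sign of TMEM173 and NLRX1 was not.

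**Figure D4:**
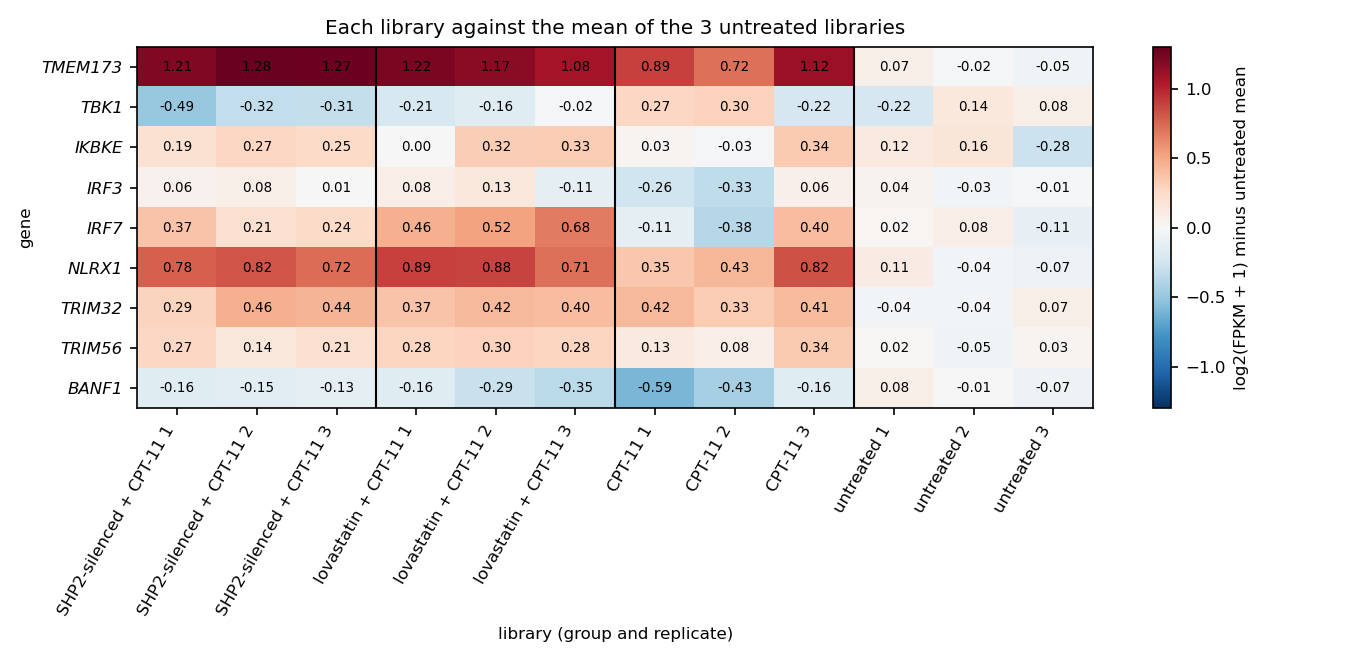
Difference of each library from the mean of the untreated libraries, log2(FPKM + 1), for the 9 tested genes (rows) in the 12 libraries (columns), from SHP2-silenced plus CPT-11 at the left to untreated at the right. CPT-11 replicate 3 shows 1.12 for TMEM173, 0.40 for IRF7 and -0.22 for TBK1, against 0.89, -0.11 and 0.27 in CPT-11 replicate 1.

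Over the 12 libraries, TMEM173 ran most closely with NLRX1 (Pearson r = 0.97), TRIM32 (r = 0.93) and TRIM56 (r = 0.86) among these genes. It ran with IKBKE and IRF7 at r = 0.58 each, with IRF3 at 0.19, with BANF1 at -0.42 and with TBK1 at -0.50. These correlations describe 12 libraries in 4 groups, which share the group differences and the GC slopes given above, and no p is attached to them. Of all tested protein-coding genes, the 5 with the pattern most like TMEM173 were FDXR, RINL, EFNB1, AQP3 and TRIM3, with r of 0.993 to 0.998 over the 12 libraries. FDXR, a mitochondrial ferredoxin reductase, averaged 147, 130, 105 and 38.2 FPKM in silenced plus CPT-11, lovastatin plus CPT-11, CPT-11 and untreated cells. EFNB1, an ephrin ligand, averaged 26.6, 25.5, 21.5 and 10.6 FPKM, and AQP3, a water and glycerol channel, averaged 5.55, 5.01, 3.94 and 1.53 FPKM in the same order of groups. Each of the 5 had the order of group means that TMEM173 had, which their choice by r over the same libraries all but fixes.

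Other genes of the pathway were counted by role, in lists of established members that were drawn up with earlier results of these data known. Among 9 genes that clear DNA or break down cGAMP, 8 could be tested. With CPT-11 alone against untreated cells 1 of them rose, where 8.85% of all tested genes rose. This was SAMHD1, a dNTP hydrolase that limits DNA sensing, at 5.48 ± 0.39 against 4.59 ± 0.18 FPKM (SD, n = 3 each; limma adjusted p = 0.044). That call was lost in a fit of these groups alone and without any 1 of the 6 libraries but CPT-11 replicate 3. With silencing SAMHD1 fell to 4.46 FPKM, against 5.48 FPKM with CPT-11 alone (difference -0.24, adjusted p = 0.024), the only call of the 8 where 10.01% of all tested genes rose and 12.02% fell. This call was lost with the GC and length correction, in a fit of these groups alone and without any library of either group but CPT-11 replicate 3. When CPT-11 replicate 3 was left out, 1 gene was higher and 1 lower both with silencing and with lovastatin against CPT-11 alone. In those fits 43.7% and 30.5% of all tested genes passed. With all libraries the lovastatin comparison called 0 in limma, where 0.465% of all tested genes passed, and 0 by voom. At an unadjusted p under 0.05 it gave 3. TREX1, the main cytosolic DNA exonuclease, was listed at 0 in every library, and all 1515 of its exonic bases are shared with ATRIP on the same strand, so this 0 says nothing of its level.

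The list of 18 genes for STING trafficking and turnover also held LRRC8A and SLC19A1, reported to carry cGAMP across the cell membrane. Of the 18, 1 rose and 2 fell with CPT-11 alone against untreated cells. These counts were near the shares of all tested genes, 8.85% and 7.72%. USP18, an interferon-induced ubiquitin-like protease, rose by 0.38 (limma adjusted p = 0.028), while INSIG1 fell by 0.37 (adjusted p = 0.0025) and USP13, a deubiquitinase, fell by 0.29 (adjusted p = 0.020). In a fit of these groups alone the USP18 and USP13 calls were lost, and so they were without untreated replicate 2 or 3; that of USP18 was also lost with no filter on low genes and on leaving out either replicate 1. Dropping CPT-11 replicate 3 gave 1 higher and 4 lower, where 24.6% of all tested genes passed. With lovastatin against CPT-11 alone INSIG1 was the only gene of the list past the test, where 0.393% of all tested genes rose and 0.0720% fell. INSIG1, an endoplasmic reticulum protein that binds the sterol sensor SCAP, stood at 44.5 ± 0.40 FPKM with lovastatin and CPT-11. It stood at 12.6 ± 0.58 FPKM with CPT-11 alone (difference 1.75, limma adjusted p = 1.2e-07). With silencing against CPT-11 alone 3 rose and 1 fell, where 10.01% of all tested genes rose and 12.02% fell. ULK1, an autophagy kinase, was higher at 9.72 against 6.70 FPKM (adjusted p = 0.015). LRRC8A, a subunit of anion channels that can carry cGAMP, was higher at 12.01 against 9.76 FPKM (adjusted p = 0.012). RNF5, a ubiquitin ligase of STING, was also higher (0.29, adjusted p = 0.037), and TMED2 was lower (-0.24, adjusted p = 0.032). A fit of these groups alone called none of the 4, nor did the fit without CPT-11 replicate 1. The GC and length correction also ended the RNF5 and TMED2 calls, as did a fit with no filter or without any other library of the 2 groups but CPT-11 replicate 3, and that of TMED2 with library totals as scaling. ULK1 was not called without CPT-11 replicate 2 or silenced replicate 1, and LRRC8A not with the GC and length correction. Without CPT-11 replicate 3 the silencing counts were 7 higher and 1 lower, and those for lovastatin against CPT-11 alone were 7 higher and 1 lower. Of all tested genes 43.7% and 30.5% passed in these fits. Against lovastatin-treated cells, silenced cells had lower INSIG1 and SQSTM1, and none of the 18 was higher, where 2.58% of all tested genes were higher and 4.26% lower. The SQSTM1 call was lost without a filter, with library totals as scaling and without any 1 of the 6 libraries. A fit of these groups alone gave 3 higher and 4 lower, and the GC and length correction gave 1 higher and 5 lower. In those fits 15.3% and 12.4% of all tested genes passed.

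Among 19 other sensors and adaptors of nucleic acids, 15 could be tested, and IFI16, AIM2, ZBP1 and TLR9 were too low. IFI16, a nuclear DNA sensor, had 34, 18, 21 and 10 reads in all in silenced plus CPT-11, lovastatin plus CPT-11, CPT-11 and untreated libraries. With CPT-11 alone against untreated cells 3 rose and 3 fell, where 8.85% of all tested genes rose and 7.72% fell. A fit of these groups alone gave 1 and 2, where 7.18% of all tested genes passed. TLR3, the endosomal sensor of double-stranded RNA, had 4.59, 4.07 and 3.36 FPKM with CPT-11 alone, against 0.842, 1.01 and 0.856 FPKM in untreated libraries, without overlap (difference 1.39 ± 0.11, limma adjusted p = 9.2e-06). XRCC6, a Ku subunit that binds DNA ends, fell by 0.43 (adjusted p = 9.8e-04), and HMGB1, a chromatin protein, fell by 0.47 (adjusted p = 0.0032). DDX58, which encodes the RNA sensor RIG-I, rose to 13.6 ± 2.9 FPKM, against 8.60 ± 1.155 FPKM (adjusted p = 0.013), a call lost in a fit of these groups alone and without CPT-11 replicate 1. With CPT-11 replicate 3 dropped, 4 rose and 3 fell, where 24.6% of all tested genes passed. With lovastatin against CPT-11 alone, PRKDC, the DNA-dependent protein kinase, fell by 0.42 (adjusted p = 0.043), and none rose, where 0.393% of all tested genes rose and 0.0720% fell. The PRKDC call was lost without a filter, with a minimum mean of 1 FPKM and in a fit of these groups alone. It was also lost without any library of either group but CPT-11 replicate 3. Leaving that library out gave 1 higher and 7 lower, where 30.5% of all tested genes passed. With silencing against CPT-11 alone 1 rose and 5 fell, where 10.01% of all tested genes rose and 12.02% fell. Among those that fell were TLR3 at 2.78 against 4.01 FPKM (adjusted p = 0.024), XRCC5 and HMGB1. These 3 calls were lost without a filter, in a fit of these groups alone and without CPT-11 replicate 1 or 2 or silenced replicate 1 or 2. The XRCC5 call was also lost without silenced replicate 3, and the TLR3 and HMGB1 calls with the GC and length correction. G3BP1, which helps cGAS bind DNA, was lower in silenced cells than with CPT-11 alone (-0.40, adjusted p = 0.0053) and than with lovastatin (-0.31, adjusted p = 0.022). The first call was lost in a fit of these groups alone (adjusted p = 0.053), and the second, the only one of the 15 there, without a filter and without any 1 of the 6 libraries. Dropping CPT-11 replicate 3 changed the counts for silencing against CPT-11 alone to 3 higher and 9 lower, where 43.7% of all tested genes passed.

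The list of TBK1 adaptors and parallel NF-kB kinases also held the transcription factors NFKB1, RELA and STAT6. Its 13 genes, all tested, gave 1 higher and 1 lower with CPT-11 alone against untreated cells. These counts were near the shares of all tested genes, 8.85% and 7.72%. OPTN, a ubiquitin-binding adaptor of TBK1, rose to 11.6 ± 1.05 FPKM, against 7.46 ± 0.05 FPKM (difference 0.58, limma adjusted p = 3.9e-04), and TANK, another TBK1 adaptor, fell to 17.9 FPKM, against 23.1 FPKM (adjusted p = 0.022). The TANK call was lost without a filter, in a fit of these groups alone and without untreated replicate 2 or 3. Leaving out CPT-11 replicate 3 gave 1 higher and 2 lower, where 24.6% of all tested genes passed. Silenced cells had lower OPTN, at 8.63 against 11.6 FPKM with CPT-11 alone (adjusted p = 0.0076), and lower TANK, at 12.7 against 17.9 FPKM (adjusted p = 0.0095). TBKBP1, a further adaptor, was higher at 6.501 against 4.53 FPKM (adjusted p = 0.011), and IKBKB was lower (-0.25, adjusted p = 0.018). In all, 2 rose and 3 fell with silencing, where 10.01% of all tested genes rose and 12.02% fell. A fit of these groups alone called 0 of the 13, where 3.26% of all tested genes passed. Leaving out CPT-11 replicate 1 gave 0 higher and 2 lower, with OPTN and TANK called, where 5.74% of all tested genes passed. The IKBKB call was also lost without CPT-11 replicate 2 or silenced replicate 1 or 2, and that of TBKBP1 with the GC and length correction. In limma 0 of 13 passed for lovastatin against CPT-11 alone, where 0.465% of all tested genes passed. At an unadjusted p under 0.05 it gave 3, and voom called 0. Dropping CPT-11 replicate 3 changed the counts to 3 higher and 7 lower with silencing, and 2 higher and 3 lower with lovastatin. Of all tested genes 43.7% and 30.5% passed in these fits. Against lovastatin-treated cells, silenced cells had lower OPTN and lower IKBKB, where 4.26% of all tested genes were lower. The IKBKB call was lost with library totals as scaling and without any 1 of the 6 libraries.

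**Figure D5:**
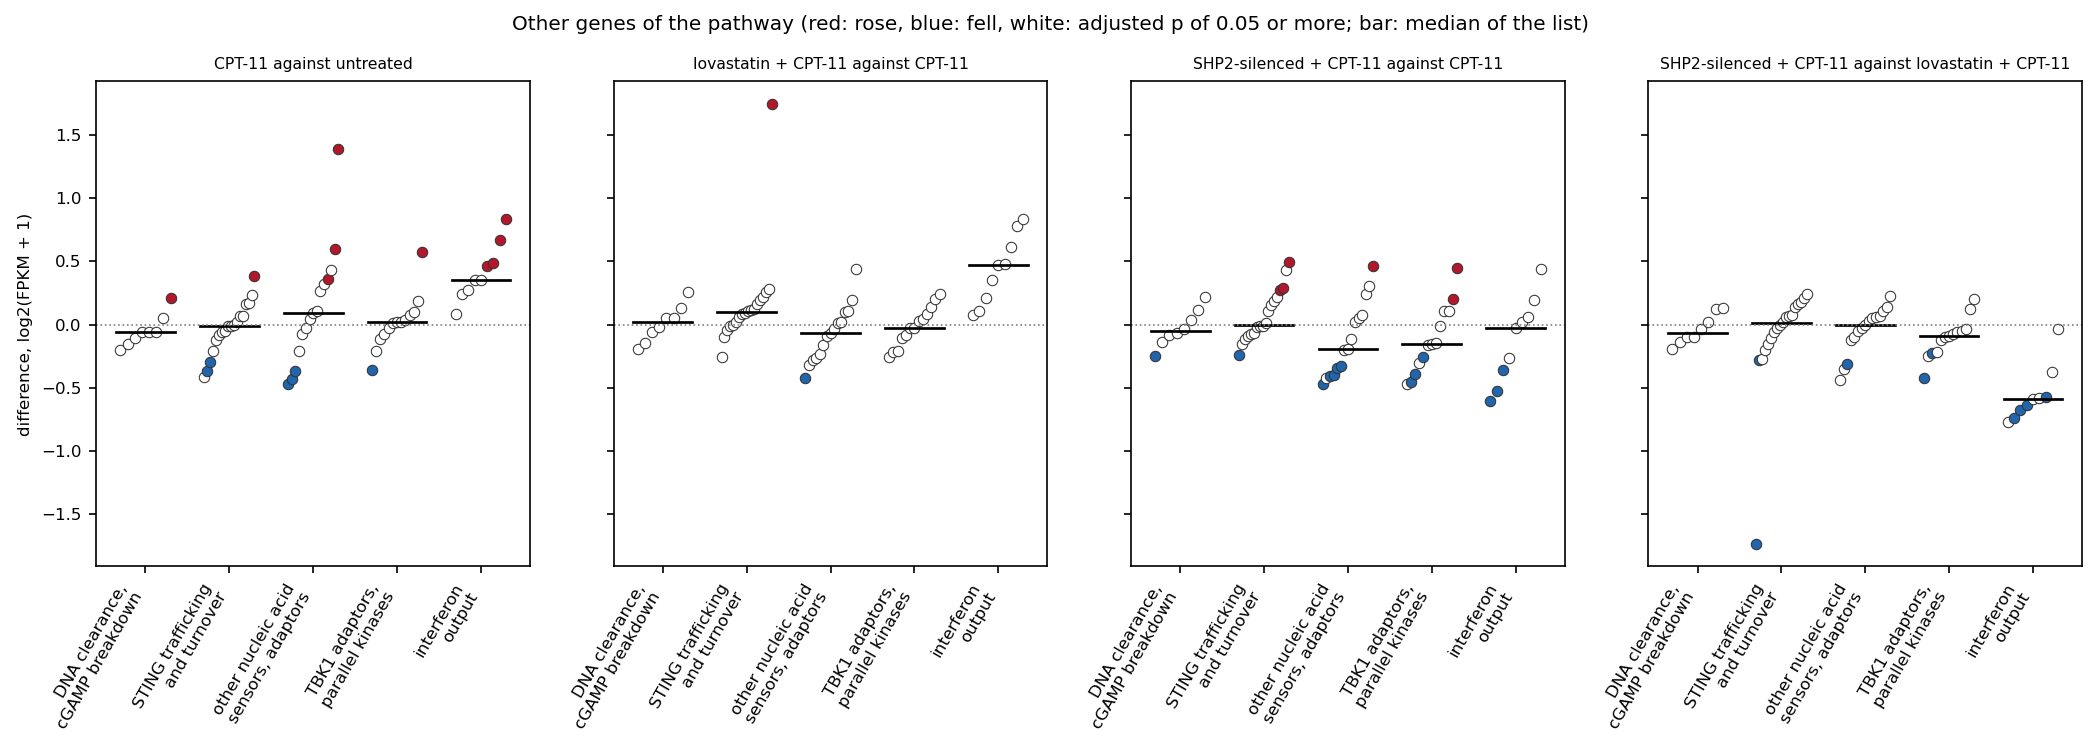
Difference on the log2(FPKM + 1) scale of each tested gene in 5 pathway lists for 4 comparisons; points are genes, red and blue ones rose or fell past an adjusted p of 0.05 and bars are list medians. In the interferon output list 4 genes are red for CPT-11 against untreated cells and 4 are blue for silencing against lovastatin, both with CPT-11.

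At the end of the relay the interferon genes themselves were low, while ISG15, an interferon-induced ubiquitin-like protein, was abundant. IFNB1, which encodes interferon beta, had 4, 4 and 2 reads with silencing and CPT-11, 5, 8 and 2 with lovastatin and CPT-11, 0, 9 and 4 with CPT-11 alone, and 1, 1 and 1 in untreated libraries, and was not tested. Of 10 interferon output genes the other 9 were tested. With CPT-11 alone against untreated cells 4 rose, where 8.85% of all tested genes rose, namely IFIT1 (0.46, limma adjusted p = 7.4e-04), IFIT2 (0.49, adjusted p = 0.0043), IFIT3 (0.67, adjusted p = 0.0021) and ISG15 (0.83 ± 0.17, adjusted p = 0.0060), all induced by interferon or directly by IRF3. The ISG15 call was lost in a fit of these groups alone (adjusted p = 0.053). With lovastatin and CPT-11 against untreated cells all 9 rose, where 14.7% of all tested genes rose. Without lovastatin replicate 1 or untreated replicate 2 or 3 it was 8, where 21.1% to 21.8% of all tested genes passed. Against CPT-11 alone 0 of them passed in limma, where 0.465% of all tested genes passed, and 0 by voom. There 6 had an unadjusted p under 0.05, and 3 rose without CPT-11 replicate 3, where 30.5% of all passed. With silencing and CPT-11 against untreated cells 2 of the 9 rose, where 18.3% of all tested genes rose. They were ISG15 (1.27, limma adjusted p = 1.9e-04) and IFNL1 (0.55, adjusted p = 0.024), the latter call lost in 7 of 14 alternative fits. IFNL2 and IFNL3 are near-identical copies, so their reads may be split between them. With silencing against CPT-11 alone IFIT1, IFIT2 and IFIT3 fell, by 0.36, 0.53 and 0.60 (adjusted p = 0.0061, 0.0053 and 0.0068), where 12.02% of all tested genes fell. The other 6 tested genes did not pass. In a fit of these groups alone 1 fell, IFIT2, where 3.26% of all tested genes passed. Without CPT-11 replicate 3 the same 3 fell and 1 rose, ISG15, where 43.7% of all tested genes passed. Against lovastatin-treated cells, silenced cells had lower IFIT1, IFIT2 and IFIT3 and lower CCL5, a chemokine, at 1.33 ± 0.07 against 2.91 ± 0.52 FPKM (adjusted p = 0.011), 4 genes in all, where 4.26% of all tested genes were lower. It was 6 in a fit of these groups alone and 7 with the GC and length correction. In those fits 15.3% and 12.4% of all tested genes passed. ISG15, IFNL1, IFNL2, IFNL3 and CXCL10 were not among those 4 genes. ISG15 stood at 379, 395 and 371 FPKM with silencing and CPT-11, 416, 403 and 357 FPKM with lovastatin and CPT-11, 244, 240 and 381 FPKM with CPT-11 alone, and 185, 160 and 132 FPKM in untreated libraries. In silenced cells TMEM173 and ISG15 were thus both at or near their highest levels while the 3 IFIT genes were at 8.21 to 12.1 FPKM on average, against 7.81 to 11.3 FPKM in untreated cells.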

How the data were processed

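Total RNA of HCT-116 cells was sequenced in 12 libraries, 3 in each of 4 groups. The deposited table holds FPKM per gene, made by the authors; HISAT2 2.0.5, StringTie 1.3.3b, featureCounts 1.5.0-p3, DESeq2 1.16.1 and hg19 are named in the submitters' processing notes, while all 58735 Ensembl features carry coordinates identical to GENCODE 29 on GRCh38, which are the coordinates printed. FPKM times gene length gave whole reads within 0.01 for all values, 14447847 to 16224271 per library; the deposited scaling follows median-of-ratios factors. Strand and multimapping settings are not stated in the labels.

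Values were tested as log2(FPKM + 1) with limma 3.58.1 (R 4.3.3) and a variance trend, with all 12 libraries and a mean per group, and p-values were adjusted by Benjamini-Hochberg over 18047 genes in each of 6 comparisons. Genes needed 10 reads, scaled to the median library, in 3 libraries and 15 in all. The fit was also run on simulated reads that shared a common spread. They held no GC slope and no deviating library, so they cannot show how the fit handles those. The genes and lists were chosen with earlier results of these data known. Named list genes were up to 4 with the smallest p for CPT-11 against untreated and for silencing against CPT-11, all that passed where 4 or fewer did, and those too low to test; ISG15 across groups was added after its values were seen. Alternatives were a pseudocount of 0.1, no filter, a minimum mean of 1 FPKM, library totals as scaling, voom on recovered reads, a fit of the compared groups alone, a replicate block, a spline correction (5 df) for GC and length over the 17778 tested genes with GC values, and each library left out. Promoter windows are from RefSeq.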

Additional observations from a re-analysis of the deposited data

How the results depend on the processing

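TMEM173 and TRIM32 were called higher in each treated group than in untreated cells under every alternative run, with 0.80 to 1.06 for TMEM173 and 0.37 to 0.43 for TRIM32 with CPT-11 alone. Of 756 alternative values over 54 gene and comparison pairs, 666 kept direction and call, 32 lost the call, 27 gained one and 31 changed sign. None of the 31 was a difference called in the report. Values that changed sign were counted by sign alone, so a call gained with the opposite sign is not in the 27. IRF3 with the GC and length correction gave such calls for lovastatin and silencing against untreated cells. The cause was not tested. A fit of the compared groups alone called 2 of these genes for CPT-11 against untreated cells, 0 for silencing against CPT-11, 1 for silencing against lovastatin and 7 for silencing against untreated cells. In that order, 7.18%, 3.26%, 15.3% and 45.3% of all tested genes passed. For silencing against CPT-11 the count was 0 without a filter and 1 with the GC and length correction, which also gave 1 for silencing against lovastatin. In that order, 4.23%, 16.4% and 12.4% of all genes in the fit passed. Leaving out 1 library gave 0 to 7 for lovastatin against CPT-11 and 0 to 6 for silencing against CPT-11, the highest without CPT-11 replicate 3 in both.

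The replicate numbers did not pair the libraries: deviations of same-numbered libraries correlated at r = -0.39 to 0.18, with 2 of 18 pairs over 0.1. With the replicate block the count for silencing against CPT-11 was 1, with the TMEM173 call lost (adjusted p = 0.050), and TRIM56 lost its call for silencing against untreated cells (adjusted p = 0.060). Among the other genes named, the block ended the calls of SAMHD1, TANK and CDH1 for CPT-11 against untreated cells, PRKDC for lovastatin against CPT-11, SAMHD1, TMED2, TLR3 and XRCC5 for silencing against CPT-11, and SQSTM1, IKBKB and G3BP1 for silencing against lovastatin. It also ended those of COL1A1 for silencing against CPT-11 and for lovastatin against untreated cells.

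With the GC and length correction, signs changed for IKBKE with lovastatin (-0.0394) and silencing (-0.0559) against CPT-11 and silencing against lovastatin (-0.0165), for IRF3 with silencing against CPT-11 (-0.0086), lovastatin (-0.0443) and untreated cells (-0.21) and with lovastatin against untreated cells (-0.16), for IRF7 with CPT-11 against untreated cells (0.0188) and with silencing against CPT-11 (-0.13) and untreated cells (-0.11), and for TRIM56 with silencing against CPT-11 (-0.0176). IRF7 with CPT-11 against untreated cells was 0.0120 when scaled to library totals. Leaving out 1 library changed signs within -0.0255 to 0.195 (IKBKE) and -0.244 to 0.144 (IRF7) for CPT-11 against untreated cells, -0.0141 to 0.109 (IRF3) for lovastatin against untreated cells, -0.0187 to 0.0227 (TRIM32) for lovastatin against CPT-11, -0.0229 to 0.0611 (TRIM32) and -0.0287 to 0.0989 (TRIM56) for silencing against CPT-11, and -0.0810 to 0.0800 (IKBKE), -0.0626 to 0.0610 (IRF3) and -0.0307 to 0.0533 (TRIM32) for silencing against lovastatin.

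Over all tested genes, CPT-11 against untreated cells gave 2991 calls, 1209 in a fit of these groups alone, 4680 with the GC and length correction and 1933 to 4419 without 1 library. Lovastatin against CPT-11 gave 84, 36 in a fit of these groups alone, 46 with the replicate block, 141 by voom, 328 with the GC and length correction and 41 to 5469 without 1 library. Silencing against CPT-11 gave 3976, 1750 without a filter, 556 in a fit of these groups alone, 2358 with the replicate block and 1029 to 7849 without 1 library. Silencing against lovastatin gave 1235, 2619 in a fit of these groups alone, 771 with the replicate block, 2235 with the GC and length correction and 592 to 742 without 1 library. With library totals as scaling the split of higher and lower calls was 1910 and 1005, against 1598 and 1393, for CPT-11 over untreated cells, and 2365 and 1640, against 1806 and 2170, for silencing over CPT-11. It was 633 and 674, against 466 and 769, for silencing over lovastatin, 3239 and 1955, against 2648 and 2582, for lovastatin over untreated cells, and 4331 and 2573, against 3306 and 3522, for silencing over untreated cells. The deposited read depth left CGAS and IFNB1 untested.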
